A study of Mus musculus with 8 samples.

Results

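The genes described here are 10 markers of astrocytes, several of which carry out the clearance of glutamate and potassium: Aqp4, Slc1a2, Slc1a3, Gja1, Gjb6, Aldh1l1, Aldoc, Glul, Kcnj10 and Acsbg1. They were taken by symbol, not by their measured values, from 54752 genes counted in mouse cortex, and all 10 passed the filter on low counts among 17136 tested genes. RNA was sequenced from the right cerebral cortex of 8 wild-type C57BL/6 mice, all male and 14 weeks old. In 4 BCAS mice (bilateral carotid artery stenosis) microcoils had been placed round both common carotid arteries, with the narrower coil on the right, and 4 Sham mice had the same operation without coils. The cortex was collected 3 weeks after the operation, and each library came from 1 mouse. The comparison asks how the cortical transcriptome differs after chronic narrowing of the carotid arteries.

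Astrocytes are the glial cells that wrap synapses with fine processes and blood vessels with endfeet. They take up the glutamate that neurons release, turn it into glutamine, and pass glutamine back to neurons. They also take up potassium, move water at the endfeet and share ions and metabolites through gap junctions. After injury they become reactive, a state classically recognised by more of the intermediate filament protein GFAP.

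The libraries held 16759364 to 21794435 counted read pairs. Levels are given as CPM, the read count relative to library size, with the size scaled by TMM factors that lay between 0.949 and 1.05. Per-length levels divide CPM by the kilobases of exon of the gene. A gene is said to have risen or fallen where its p, adjusted by Benjamini and Hochberg's method over all tested genes, was below 0.05 in edgeR's quasi-likelihood test, and is named as called where its log2 fold change also exceeded 1 in size. The tissue was a mixture of cells whose markers differed between the groups, where 19.2% of all tested genes rose and 12.8% fell. Of 12 neuronal markers, 9 fell and 0 rose, with a summed level of 13337 to 15689 CPM in Sham and 5494 to 11502 CPM in BCAS mice. All 13 markers of microglia and macrophages rose, from sums of 418 to 510 CPM to sums of 2130 to 8488 CPM. Of the markers of oligodendrocyte precursors 3 of 6 rose, with a median log2 fold change of 0.46, and of those of endothelial cells and pericytes 4 of 10 rose, with a median of 0.48. Of 9 oligodendrocyte markers 0 changed, with a median of 0.21, and both tested of 10 leukocyte markers rose, with Ly6g at 0 in every library. Of 6 tested markers of choroid plexus and ependyma 1 rose. None of the 10 astrocyte genes was at 0 in any library, and their summed level was 6601 to 8173 CPM in Sham and 7694 to 9470 CPM in BCAS mice, so that the ranges overlapped. This sum, on average 7432 CPM in Sham mice, was weighted to Slc1a2 with 3533 CPM and Glul with 1519 CPM, neither of which passed the test. In such bulk samples, more cells of a type, more RNA per cell and less RNA from other cells cannot be told apart.

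Of the 10 astrocyte genes, 5 rose in BCAS mice and 0 fell. Aqp4 rose about 3-fold, Gja1, Aldh1l1, Slc1a3 and Gjb6 rose by 1.37 to 1.53 times, and Slc1a2, Aldoc, Glul, Kcnj10 and Acsbg1 did not pass the test. Among all tested genes 19.2% rose and 12.8% fell, 32.0% in all. The share that fell depended on the scaling and on single mice, with 3291 genes higher and 2199 lower here, 3984 and 1294 with library size alone, and 2131 and 418 without Sham mouse 1. Only Aqp4 of the 10 was called, against 11.0% of all tested genes called higher and 1.28% called lower, 12.2% in all. The 220 genes called lower numbered 147 with library size alone, 86 without Sham mouse 1, 112 without BCAS mouse 1 and 559 without BCAS mouse 2, and between 86 and 559 with any mouse left out. For 5 of the 10, every BCAS mouse was above every Sham mouse, which was so for 18.5% of all tested genes, and for 0 every BCAS mouse was below, against 16.3% of all tested genes. All 10 estimated log2 fold changes were above 0, with a median of 0.40, beside a median of -0.01 over all tested genes. This was not particular to them. All 10 markers of endothelial cells and pericytes were also above 0, with a median of 0.48. So were all 6 of oligodendrocyte precursors, with a median of 0.46, and 8 of 9 oligodendrocyte markers, but only 1 of 12 neuronal markers.

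**Figure D1:**
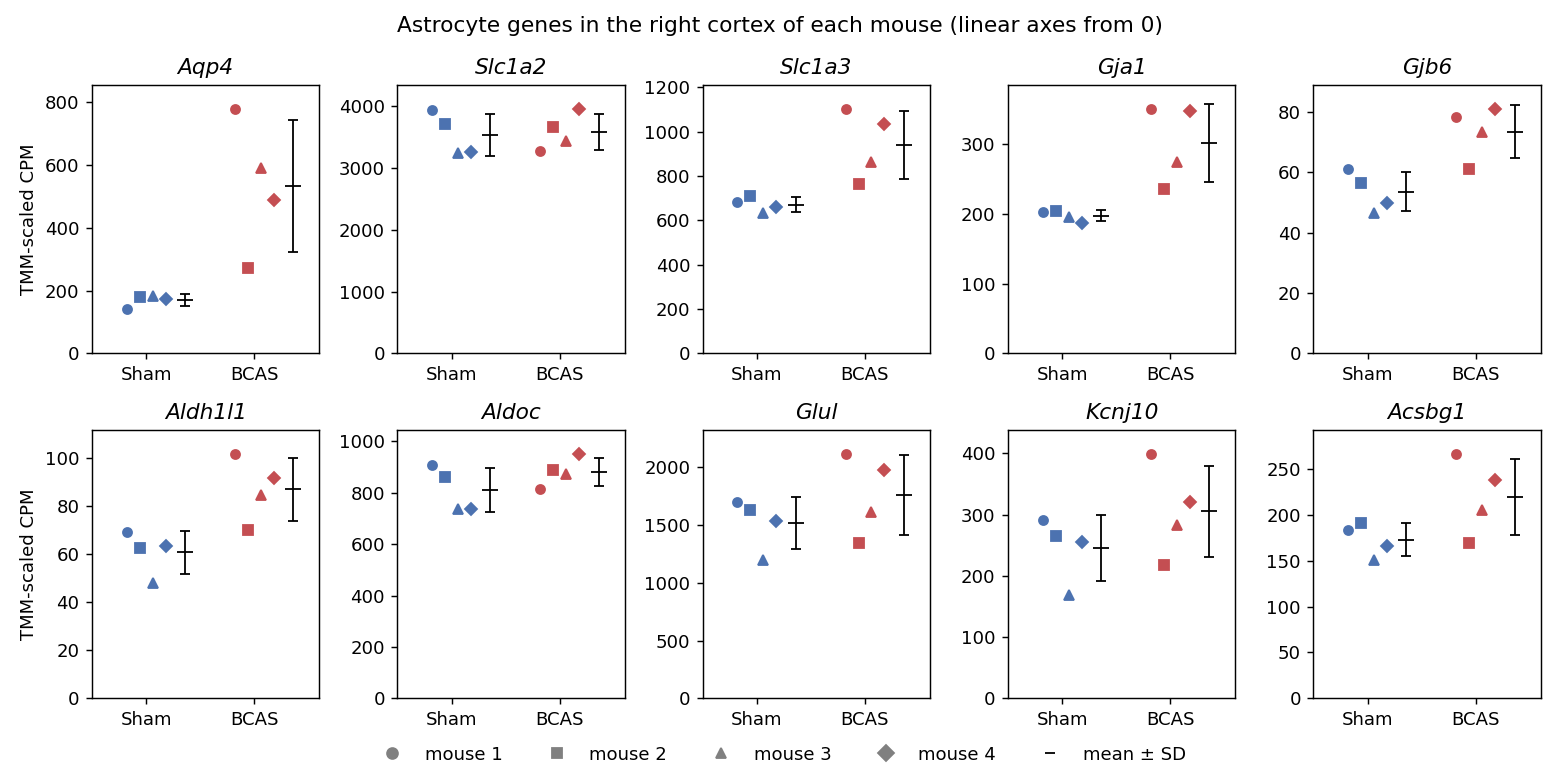
TMM-scaled CPM of each of the 10 astrocyte genes (vertical axes, linear from 0) in each of the 4 Sham mice (blue) and 4 BCAS mice (red), with the mean and SD of each group in black; the marker shape gives the mouse number within its group. The groups separate for Aqp4, Slc1a3, Gja1, Gjb6 and Aldh1l1 and overlap for the other 5, and BCAS mouse 2 is the lowest BCAS mouse in 8 of the 10 panels.

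The pair of glutamate transporters differed, since Slc1a3 rose and Slc1a2 did not pass the test. Slc1a2 encodes the main glutamate transporter of the adult forebrain and lies on the plus strand of chromosome 2, 102658659 to 102790784 (mm10, GENCODE vM20), with 1.44% of its exon bases shared with Gm13872 on the opposite strand. Slc1a2 stood at 3934, 3705, 3242 and 3251 CPM in Sham mice 1 to 4 and at 3271, 3669, 3435 and 3947 CPM in BCAS mice 1 to 4, the order used for every gene that follows. The ranges of the groups overlapped, with means of 3533 ± 344 (SD, n = 4) and 3581 ± 294 CPM (SD, n = 4). Slc1a2 had a log2 fold change of 0.02 (SE 0.15, adjusted p = 0.932 in edgeR's quasi-likelihood test), with a 95% confidence interval of -0.32 to 0.36. The sign of this small difference turned without Sham mouse 3, without Sham mouse 4 and without BCAS mouse 4, to -0.03, -0.02 and -0.03.

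Slc1a3 encodes the glutamate transporter GLAST, which in the adult forebrain is less abundant than the product of Slc1a2, and lies on the minus strand of chromosome 15, 8634124 to 8710764. Sham mice had 683, 709, 631 and 661 CPM and BCAS mice 1100.4, 762, 863 and 1032 CPM. Every BCAS mouse was above every Sham mouse, with BCAS mice 1 and 4 the highest and BCAS mouse 2 closest to the Sham range. The means were 671 ± 33.4 CPM (SD, n = 4) in Sham and 939.5 ± 155 CPM (SD, n = 4) in BCAS mice, a ratio of 1.40. Slc1a3 rose by a log2 fold change of 0.49 (SE 0.14, 95% confidence interval 0.18 to 0.79, adjusted p = 0.0277 in edgeR's quasi-likelihood test). Leaving out any of the 4 Sham mice, or BCAS mouse 3 or 4, took the adjusted p above 0.05, to at most 0.0763, while the log2 fold change stayed between 0.41 and 0.59.

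The ratio of the counts of both transporters within a library depends on neither depth nor scaling. Slc1a3 counts per Slc1a2 count came to 0.174, 0.191, 0.195 and 0.203 in the Sham libraries, against 0.336, 0.208, 0.251 and 0.261 in the BCAS libraries. The groups did not overlap, although BCAS mouse 2 lay just above Sham mouse 4. The mean log2 ratio was -2.39 ± 0.10 (SD, n = 4) in Sham and -1.94 ± 0.29 (SD, n = 4) in BCAS mice. The difference of 0.45 had p = 0.0286 in the exact two-sided permutation test over the 70 arrangements of the libraries, the smallest p that 4 against 4 allows, and an adjusted p of 0.0429 over the 6 ratios tested.

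The sequences before the starts of both transporter genes are shown because these members of the same pathway differed in the comparison. They are the 250 bases upstream of the RefSeq start in GRCm38.p6, the assembly of mm10, read 5′ to 3′ on the strand of the gene. Capitals mark matches, on either strand, to 5 motifs, none of which overlapped here. These are TTCNNNGAA, the type of site that STAT factors bind, TTGGCA, the short site of the NFI family of factors, ACAAT, the core letters of the sites of SOX factors, GGGCGG, known as the GC box of many promoters, and TATAAA, the TATA box.
Slc1a2 promoter, chr2:102706188-102706437 (plus strand): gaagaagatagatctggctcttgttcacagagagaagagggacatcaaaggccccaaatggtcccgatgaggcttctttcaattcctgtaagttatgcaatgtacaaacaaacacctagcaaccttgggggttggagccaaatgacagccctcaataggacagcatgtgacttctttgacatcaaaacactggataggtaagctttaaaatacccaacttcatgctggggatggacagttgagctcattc
Slc1a3 promoter, chr15:8710808-8711057 (minus strand): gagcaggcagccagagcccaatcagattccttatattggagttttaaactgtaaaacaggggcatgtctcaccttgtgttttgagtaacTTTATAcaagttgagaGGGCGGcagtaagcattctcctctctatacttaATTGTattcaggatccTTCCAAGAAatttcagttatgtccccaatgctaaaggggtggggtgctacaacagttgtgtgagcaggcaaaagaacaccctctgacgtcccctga
The Slc1a3 window held 1 match each to the STAT, SOX, GC box and TATA box letters, which were found in 7.02%, 27.7%, 32.7% and 12.4% of all 32851 RefSeq windows of this length. The Slc1a2 window, which lies within the span of the gene as GENCODE draws it, held none of these letters, and neither window held the NFI letters, which are in 12.3% of all windows. Both windows had a GC content of 44.8%. RefSeq start windows were matched for 9 of the 10 astrocyte genes, with 2 windows for Aldoc and none for Aqp4, the gene that rose most. Of the genes that rose, Gja1 and Gjb6 held none of the 5 motifs and Aldh1l1 held 1 GC box. Of those that did not pass, Acsbg1 held 1 match to the STAT letters, Glul 1 GC box and Kcnj10 2, while the first Aldoc window held 1 match each to the NFI, SOX and GC box letters and the second 2 to the STAT letters. These matches describe the letters in the windows and were not tested as binding sites.

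Glul encodes glutamine synthetase, which turns glutamate and ammonia into glutamine, and lies on the plus strand of chromosome 1, 153899944 to 153909723, with 3.49% of its exon bases shared with Teddm2 and Mir8114. Its levels were 1703, 1634, 1202 and 1537 CPM in Sham and 2111, 1348, 1609 and 1974 CPM in BCAS mice. BCAS mice 1 and 4 were above all Sham mice, whereas BCAS mouse 2 was below 3 of the 4. Glul had a log2 fold change of 0.21 (SE 0.18, 95% confidence interval -0.20 to 0.63, adjusted p = 0.386 in edgeR's quasi-likelihood test). The log2 ratio of Glul to Slc1a2 differed by 0.18 between the groups, with p = 0.4 in the exact permutation test and adjusted p = 0.4. These values moved with single mice. Glul had a log2 fold change of 0.11 without Sham mouse 3, 0.13 without BCAS mouse 1 and 0.34 without BCAS mouse 2, and the difference in the ratio was 0.11, 0.046 and 0.32 without the same mice.

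Among 19 other genes that transport, make or sense glutamate and glutamine, 4 rose and 7 fell, with a median log2 fold change of -0.42, beside 19.2% of all tested genes that rose and 12.8% that fell. The 4 that rose were Slc1a5, a neutral amino acid exchanger that carries glutamine, Slc7a11, the subunit of the exchanger that releases glutamate for cystine, Slc38a2, a glutamine transporter, and Glud1, glutamate dehydrogenase. Slc1a5 had 2.37 to 4.41 CPM under Sham and 26.5, 4.38, 17.1 and 11.7 CPM under BCAS, so that BCAS mouse 2 fell inside the Sham range, and its log2 fold change was 2.24 (adjusted p = 0.0116 in edgeR's quasi-likelihood test). Slc7a11 rose from a mean of 82.0 CPM to 168 CPM, with a log2 fold change of 1.04 and an adjusted p of 0.00736 in the same test. The genes that fell included Slc17a7, the vesicular glutamate transporter of cortical excitatory neurons, with a log2 fold change of -0.87, and Gls2 with -0.85. Slc1a1, the neuronal glutamate transporter, had a log2 fold change of -0.59 (adjusted p = 0.0290 in edgeR's quasi-likelihood test), but 42.6% of its exon bases are shared with 4430402I18Rik on the opposite strand, and counting took no account of strand. Slc38a3, a transporter through which astrocytes release glutamine, had a log2 fold change of 0.53 that did not pass the test (adjusted p = 0.0800 in edgeR's quasi-likelihood test). The fall of Slc17a7 and Slc1a1 came beside the lower sum of the neuronal markers, of which Slc17a7 is also a member, and the part of that lower sum in these values was not tested. Leaving out any of the 4 Sham mice, or BCAS mouse 3 or 4, took the count of 11 changed genes of this list to between 2 and 7. With Sham mouse 1 or 4 left out, or BCAS mouse 4, 2 genes rose and 0 fell. With Sham mouse 2 or BCAS mouse 3 left out 2 rose and 1 fell, and with Sham mouse 3 left out 2 rose and 5 fell.

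Of the genes that serve water and potassium at the endfeet, Aqp4 rose and Kcnj10 did not pass the test. Aqp4 encodes the main water channel of the brain, concentrated where endfeet face blood vessels, and lies on the minus strand of chromosome 18, 15389496 to 15410982, with no exon bases shared with another gene. Sham mice had 141, 181, 182 and 175 CPM and BCAS mice 778, 273, 591 and 489.8 CPM. All BCAS mice were above all Sham mice, and among BCAS mice the highest, mouse 1, was nearly 3 times the lowest, mouse 2. The means were 169.7 ± 19.4 CPM (SD, n = 4) and 533 ± 210.4 CPM (SD, n = 4), a ratio of 3.14, and the log2 fold change was 1.65 (SE 0.28, 95% confidence interval 1.03 to 2.27, adjusted p = 0.00471 in edgeR's quasi-likelihood test). When single mice were left out, the log2 fold change of Aqp4 stayed between 1.42 and 1.88 and the adjusted p at or below 0.0234.

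Kcnj10 encodes the inwardly rectifying potassium channel through which astrocytes take up potassium, and lies on the plus strand of chromosome 1, 172341210 to 172374085. Sham mice had 291, 265, 168 and 256 CPM and BCAS mice 398, 219, 283 and 320 CPM. The groups overlapped, with BCAS mouse 2 below 3 Sham mice and Sham mouse 3 below all other mice. Kcnj10 had a log2 fold change of 0.32 (SE 0.21, 95% confidence interval -0.16 to 0.79, adjusted p = 0.271 in edgeR's quasi-likelihood test). It was 0.16 without Sham mouse 3, 0.18 without BCAS mouse 1 and at most 0.46 with any other mouse left out. Aqp4 counts per Kcnj10 count came to 0.484, 0.682, 1.08 and 0.683 in the Sham libraries, against 1.95, 1.25, 2.08 and 1.53 in the BCAS libraries. The log2 ratio was higher in BCAS mice by 1.25, without overlap (exact permutation p = 0.0286, adjusted p = 0.0429 over the 6 ratios).

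**Figure D2:**
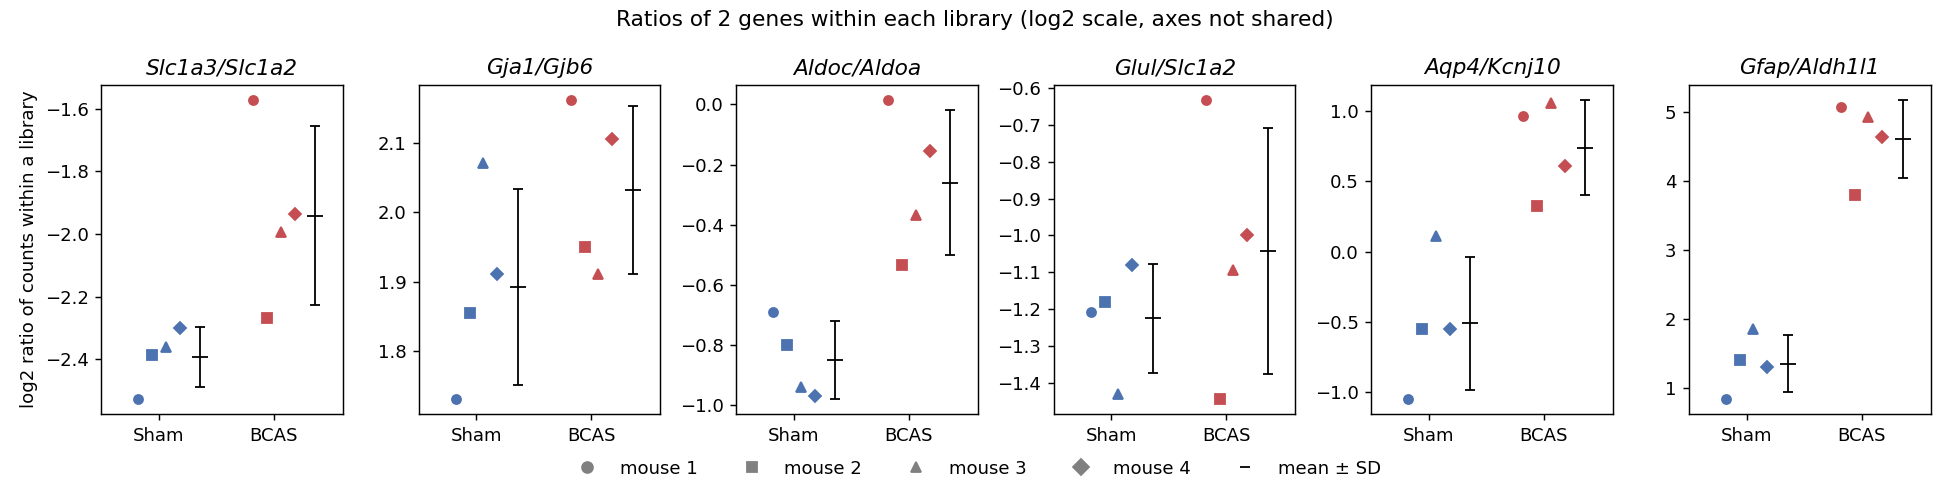
Log2 of the ratio of the counts of a pair of genes in each library, for the 6 ratios tested, with Sham mice in blue and BCAS mice in red and the mean and SD in black. Slc1a3 to Slc1a2, Aldoc to Aldoa, Aqp4 to Kcnj10 and Gfap to Aldh1l1 were higher in every BCAS mouse than in every Sham mouse, and Gja1 to Gjb6 and Glul to Slc1a2 overlapped.

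Among 13 partners of these channels and of the gap junctions, 2 rose and 2 fell, with a median log2 fold change of 0.03, a share close to the 32.0% of all tested genes that changed. Those that rose were Gjb2, a connexin of astrocytes and of the meninges, with a log2 fold change of 1.21 (adjusted p = 0.00876 in edgeR's quasi-likelihood test), and Dag1, the dystroglycan that links endfeet to the basement membrane, with 0.34. Those that fell were Gjd2, the main connexin of neurons, with -1.19, and Kcnk1, a leak potassium channel, with -0.44. Kcnj16, which pairs with the product of Kcnj10 in some channels, had 0.05.

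Both astrocyte connexins rose. Gja1 encodes the main connexin of astrocyte gap junctions and lies on the plus strand of chromosome 10, 56377330 to 56402513. Sham mice had 202, 204, 196 and 188 CPM and BCAS mice 350.3, 236, 275 and 348 CPM, with no overlap and a spread among Sham mice of 7.49 CPM (SD, n = 4). Gja1 had a log2 fold change of 0.61 (SE 0.13, 95% confidence interval 0.31 to 0.92, adjusted p = 0.0118 in edgeR's quasi-likelihood test), and it passed with each of the 8 mice left out. Gjb6, the other main astrocyte connexin, lies on the minus strand of chromosome 14, 57123303 to 57133611, and had 60.98, 56.5, 46.6 and 49.9 CPM in Sham and 78.2, 61.14, 73.2 and 80.8 CPM in BCAS mice. Sham mouse 1 and BCAS mouse 2 were nearly level, so the groups only just failed to overlap. Gjb6 rose by a log2 fold change of 0.46 (SE 0.12, 95% confidence interval 0.19 to 0.72, adjusted p = 0.0211 in edgeR's quasi-likelihood test), but without Sham mouse 2, 3 or 4 or BCAS mouse 3 or 4 the adjusted p was above 0.05, up to 0.0648. The log2 ratio of Gja1 to Gjb6 was 1.89 ± 0.14 (SD, n = 4) in Sham and 2.03 ± 0.12 (SD, n = 4) in BCAS mice, which was not a detectable difference (exact permutation p = 0.171, adjusted p = 0.206). The difference of 0.14 was 0.087 without Sham mouse 1.

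Of the 3 enzymes besides Glul, Aldh1l1 rose. It encodes a folate enzyme widely used to mark astrocytes and lies on the plus strand of chromosome 6, 90486427 to 90600203, with 13.4% of its exon bases shared with Gm45901 and Gm15756. Sham mice had 69.2, 62.5, 48.2 and 63.2 CPM and BCAS mice 101.5, 69.9, 84.7 and 91.5 CPM. The groups did not overlap, with Sham mouse 1 and BCAS mouse 2 close to each other. The log2 fold change was 0.52 (SE 0.14, 95% confidence interval 0.20 to 0.83, adjusted p = 0.0257 in edgeR's quasi-likelihood test), and without Sham mouse 2, 3 or 4 or BCAS mouse 3 or 4 the adjusted p was above 0.05, up to 0.0644.

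Aldoc encodes the aldolase of glycolysis that astrocytes favour and lies on the plus strand of chromosome 11, 78322968 to 78327781. Sham mice had 906, 859, 735 and 738 CPM and BCAS mice 814, 888, 874 and 948 CPM. The groups overlapped, and BCAS mouse 1, the highest in most of the other genes, was the lowest BCAS mouse here. The log2 fold change was 0.12 (SE 0.12, 95% confidence interval -0.14 to 0.38, adjusted p = 0.434 in edgeR's quasi-likelihood test), and 0.07 without Sham mouse 3 or Sham mouse 4. Aldoa, the more broadly expressed aldolase, had 1409 to 1495 CPM in Sham and 805 to 1286 CPM in BCAS mice, without overlap, and a log2 fold change of -0.44 that did not pass the test (adjusted p = 0.0518 in edgeR's quasi-likelihood test). Aldoc counts per Aldoa count came to 0.620, 0.575, 0.521 and 0.510 in the Sham libraries, against 1.01, 0.690, 0.776 and 0.898 in the BCAS libraries. Aldoc to Aldoa was higher in BCAS mice by 0.59 on the log2 scale, without overlap (exact permutation p = 0.0286, adjusted p = 0.0429 over the 6 ratios).

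Acsbg1 encodes an acyl-CoA synthetase for long fatty acids and lies on the minus strand of chromosome 9, 54604877 to 54661870. Sham mice had 183, 191, 151 and 166 CPM and BCAS mice 265, 169, 205 and 238 CPM. BCAS mouse 2 lay inside the Sham range, and the other 3 were above it. Acsbg1 had a log2 fold change of 0.34 (SE 0.15, 95% confidence interval 0.02 to 0.67, adjusted p = 0.0953 in edgeR's quasi-likelihood test), and it was 0.46 without BCAS mouse 2, with an adjusted p of 0.00993, but 0.25 without BCAS mouse 1 and 0.28 without Sham mouse 3, with adjusted p of 0.166 and 0.211. Of the 5 tested of 7 paralogs of the enzymes among the 10 genes, 1 rose, a share close to the 19.2% of all tested genes that rose. It was Aldh1l2, the mitochondrial relative of Aldh1l1, with a log2 fold change of 1.65 (adjusted p = 0.00617 in edgeR's quasi-likelihood test) and 14.1% of its exon bases shared with other genes. Lgsn, a relative of Glul, had 0 counts in every library.

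**Figure D3:**
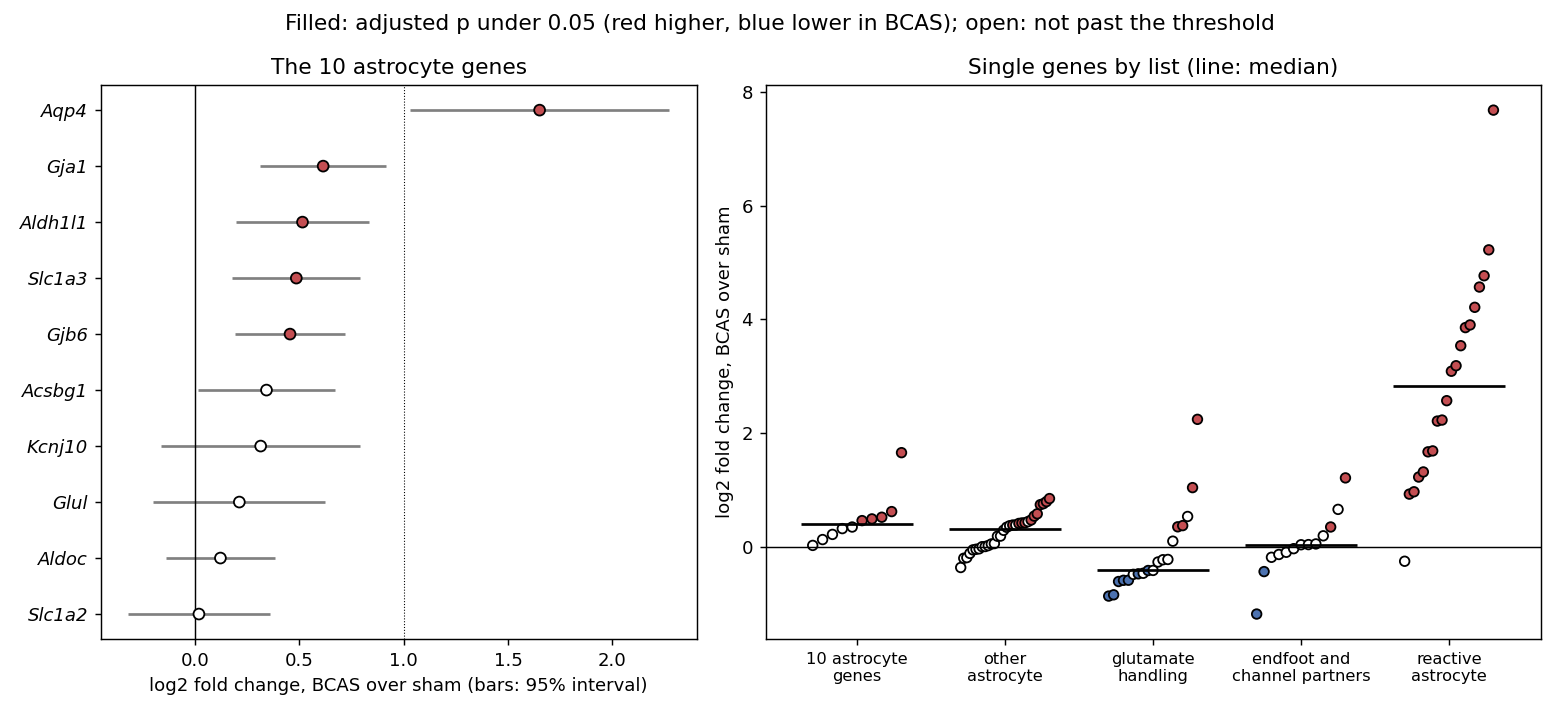
Log2 fold change of BCAS against Sham mice, at left for the 10 astrocyte genes with 95% confidence intervals from edgeR's quasi-likelihood fit and at right for every tested gene of the 10 and of 4 other lists, with the median of each list as a bar; filled points passed the test (red higher, blue lower) and open points did not. Aqp4 stands alone above 1 among the 10, whose median is 0.40, beside 2.83 for the reactive astrocyte genes and -0.42 for the glutamate handling genes.

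Per kilobase of exon, the order of the 10 genes ran from Glul to Aldh1l1 in both groups. In Sham mice Glul had 457 ± 66.9 CPM per kilobase (SD, n = 4), followed by Slc1a2 with 269 ± 26.2 and Aldoc with 248 ± 26.5, whose ranges overlapped. Slc1a3 followed with 78.6 ± 3.91 CPM per kilobase, apart from its neighbours. Acsbg1 with 47.9 ± 5.0 and Kcnj10 with 45.4 ± 9.88 CPM per kilobase overlapped each other, as did Aqp4 with 27.2 ± 3.11 and Gjb6 with 20.0 ± 2.42, and Gjb6 and Gja1 with 19.3 ± 0.730. Aldh1l1 was last with 13.5 ± 1.97 CPM per kilobase. In BCAS mice Aqp4 had 85.5 ± 33.8 CPM per kilobase (SD, n = 4) and stood in place 5 in place of 7, where its range overlapped that of Slc1a3 above it and of Acsbg1 below it. Gja1 and Gjb6 also changed places in BCAS mice, with ranges that overlapped in both groups.

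**Figure D4:**
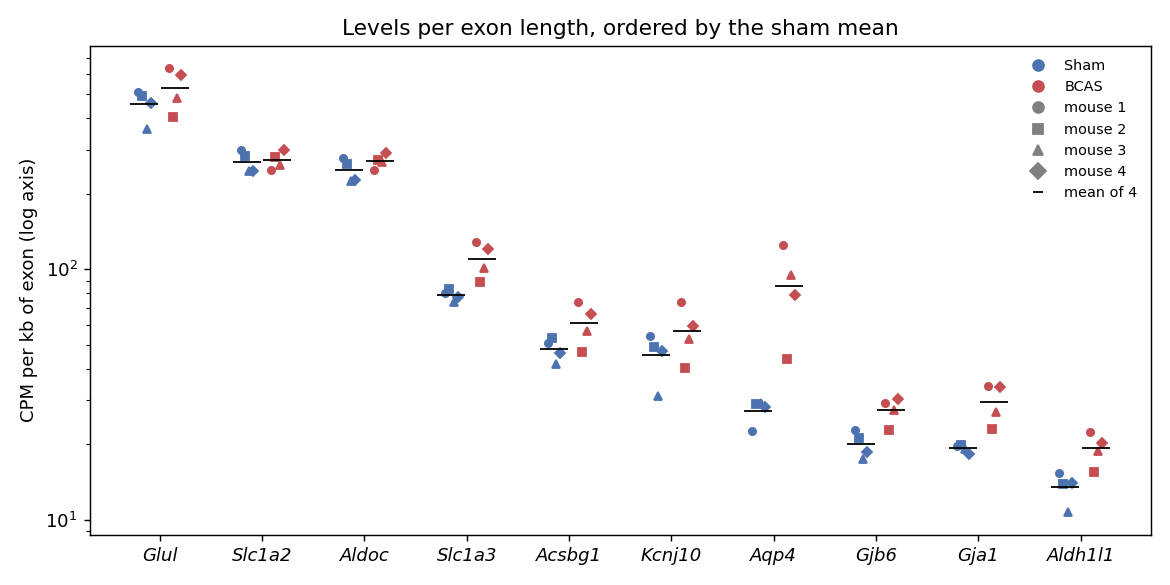
Level per kilobase of exon (CPM per kilobase, log axis) of the 10 astrocyte genes in each library, ordered by the Sham mean, with Sham mice in blue and BCAS mice in red, the marker shape giving the mouse and the bar the group mean. Glul is highest and Aldh1l1 lowest in both groups, and Aqp4 moves from place 7 in Sham to place 5 in BCAS mice.

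The BCAS mice differed from each other in a like order for most of the genes. Mouse 1 was the highest BCAS mouse for 7 of the 10 genes and mouse 4 for the other 3, while mouse 2 was the lowest for 8 and mouse 1 for Slc1a2 and Aldoc. The sum of the microglia and macrophage markers was also highest in BCAS mouse 1, with 8488 CPM, and lowest in BCAS mouse 2, with 2130 CPM, beside 4453 CPM in mouse 3 and 4346 CPM in mouse 4. The neuronal sum ran the other way, with 5494 CPM in mouse 1 and 11502 CPM in mouse 2. Among Sham mice, mouse 3 was the lowest for 8 of the 10 genes, mouse 1 for Aqp4 and mouse 4 for Gja1. Sham mouse 3 also stood apart in choroid plexus and ependyma markers, with a sum of 763 CPM beside 22.4 to 53.5 CPM in the other Sham and 48.2 to 77.5 CPM in the BCAS mice, and had the lowest oligodendrocyte sum, 3919 CPM. The part of these differences in tissue make-up in the values of the astrocyte genes was not tested. Without Sham mouse 3 the log2 fold changes were 0.45 for Slc1a3, 0.39 for Gjb6 and 0.41 for Aldh1l1, none of which then passed the test.

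**Figure D5:**
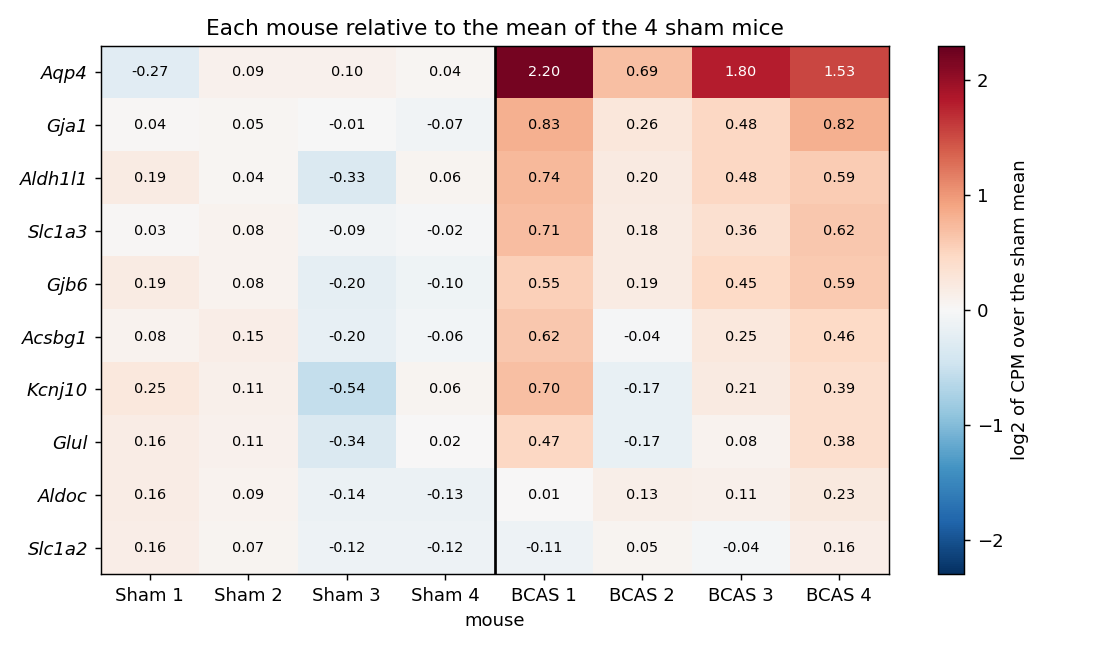
Log2 of the CPM of each of the 10 astrocyte genes (lines) in each mouse (columns) over the mean of the 4 Sham mice, as colour (red above, blue below) and as the printed value. BCAS mouse 2 lies below the other BCAS mice in 8 genes, and in Slc1a2 and Aldoc BCAS mouse 1 is the lowest.

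The nearest profiles over the 8 libraries were found as the smallest root-mean-square difference in log2 CPM relative to the Sham mean, among tested genes with at least 10 CPM on average. Slc1a2 was closest to Sparcl1, another gene of astrocytes and of vessels, at 0.0328, and Gja1 to Rab34 at 0.0289. Slc1a3 was closest to Rps19 at 0.0373, Acsbg1 to Hipk2 at 0.0416, Aldoc to Cuedc1 at 0.0646 and Glul to Gm2115 at 0.0611. Aqp4 had no profile nearer than that of Gng5 at 0.0889. Among the 10 genes themselves, the closest pair was Slc1a2 and Aldoc at 0.0788 and the farthest Aqp4 and Slc1a2 at 1.19. Taken relative to the Sham mean, such differences include those in log2 fold change, which was 0.02 for Slc1a2, 0.12 for Aldoc and 1.65 for Aqp4.

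Among 30 other astrocyte genes, 11 rose and 0 fell, with a median log2 fold change of 0.31 and 0 called, beside the 19.2% of all tested genes that rose. Of the 30, 21 had a log2 fold change above 0 and 9 below, down to -0.37 for Fjx1, which did not pass the test. Those with the largest increase were Sox9, a transcription factor of astrocytes, with a log2 fold change of 0.84 (adjusted p = 0.00626 in edgeR's quasi-likelihood test) and a mean that went from 33.0 to 59.2 CPM, Mlc1, a membrane protein of endfeet, with 0.79, and S100b, a calcium-binding protein, with 0.75. Of the genes that rose, Ntsr2, a neurotensin receptor, had the smallest log2 fold change, 0.38. Leaving out any of the 4 Sham mice, or BCAS mouse 3 or 4, took the count of 11 to between 5 and 7, all of them higher. Leaving out BCAS mouse 2 took it to 17 changed genes, 16 higher and 1 lower. With all mice, 1 gene was also lower with RLE size factors, DESeq2 or limma on log2(CPM + 1). The same held for limma-voom with quality weights and for the replicate block.

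Of 20 genes of reactive astrocytes, 19 rose, 0 fell and 17 were called, with a median log2 fold change of 2.83, beside 19.2% of all tested genes that rose and 11.0% that were called higher. The list was chosen with results of these data known, and several of its members, such as Vim, Cd44 and Lcn2, are also made by microglia, vessels or leukocytes. Gfap had 124, 167, 175 and 156 CPM in Sham and 3427, 979, 2578 and 2297 CPM in BCAS mice, and its log2 fold change was 3.90 (SE 0.36, adjusted p = 0.00146 in edgeR's quasi-likelihood test). Vim, another intermediate filament, went from a mean of 43.1 to 498.5 CPM, a log2 fold change of 3.53. Gap43, a growth-associated protein mostly of neurons, was the gene that did not pass, with -0.26. Gfap counts per Aldh1l1 count came to 1.79, 2.67, 3.62 and 2.47 in the Sham libraries, against 33.8, 14.0, 30.4 and 25.1 in the BCAS libraries. The log2 ratio was higher in BCAS mice by 3.26, without overlap (exact permutation p = 0.0286, adjusted p = 0.0429 over the 6 ratios).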

How the data were processed

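RNA of the right cortex of 4 Sham and 4 BCAS mice had been read as pairs on an Illumina NovaSeq, with 1 mouse per library, so p-values measure the spread between mice. Per the labels and methods, the authors trimmed reads with Trim Galore, aligned them to mm10 with HISAT2 and sorted them with SAMtools 1.9. The deposited values are counts of read pairs on exons per gene, not normalized. The table headers name featureCounts 2.0.1 and GENCODE vM20, without strand, whereas the submitters' notes name featureCounts 1.6.3 and the methods name RefSeq genes. Exon lengths and shared exon bases here are those of GENCODE vM20. Pairs that fell on more than 1 gene were not assigned under that call, so shared exon bases lower the counts of both genes. Gene symbols were matched to 54723 of 54752 identifiers.

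Counts were analysed here in edgeR 4.0.16 (R 4.3.3), with TMM, filterByExpr (minimum count 10, minimum total 15; 17136 genes) and the quasi-likelihood test without covariates. Ratios used log2 of counts plus 0.5. Samples were grouped by their titles. The text names all 10 genes, up to 3 genes that rose and 3 that fell most in other lists, fixed relatives (Gfap, Vim, Aldoa, Slc1a1, Gjb2 and Slc38a3) and the nearest profiles; Slc38a2, Glud1, Dag1, Kcnk1, Kcnj16, Ntsr2, Fjx1, Gap43 and Lgsn were picked after their values were seen. Some genes of the lists are not reported here by name. The genes and lists were chosen with earlier results of these data known. Alternatives were other normalizations and filters, DESeq2 1.42.0, limma 3.58.1, a replicate block and leaving out each mouse. The plain edgeR, DESeq2 and limma fits were tried on simulated counts with the same dispersion for every gene, which these data need not share. The ratio tests, the replicate block and the quality weights were not tried there. Promoter windows came from RefSeq (GRCm38.p6). Figures were drawn with matplotlib 3.10.9.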

Additional observations from a re-analysis of the deposited data

How the results depend on the processing

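Over 19 alternatives, Aqp4 and Gja1 stayed below an adjusted p of 0.05 in all 19, Gjb6 and Aldh1l1 in 14 and Slc1a3 in 12, and Acsbg1 passed in 2. The log2 fold change of each of the 10 genes but Slc1a2 stayed above 0 in every alternative. With each mouse left out in turn, that of Slc1a2 ran from -0.030 to 0.073, and the counts of changed genes from 2549 to 8166 over all genes (5490 with all mice), from 2 to 6 among the 10 (5 with all mice), from 5 to 17 among the other astrocyte genes, from 2 to 13 in glutamate handling and from 1 to 2 among the paralogs. Fewer libraries were then fitted. The paralogs that changed numbered 2 with RLE size factors, the upper quartile or limma-voom and 3 with DESeq2 or limma-voom with quality weights. The cause was not tested. Same-numbered mice did not deviate together (correlations -0.05, -0.10, -0.01 and 0.00), and 0 of 8 libraries correlated best with their own number. With the replicate block, 3546 genes changed, among them 5 of glutamate handling, and Slc1a3 had an adjusted p of 0.0725 in edgeR. Scaling by library size alone moved the median of all genes to 0.08 and that of the 10 genes to 0.49. Depth limits little here, since the lowest count of the 10 genes was 814, of Gjb6 in Sham mouse 3.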
